A study of Mus musculus with 4 samples.

Results

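The genes described here are 10 core genes of the circadian clock, *Arntl* (also known as *Bmal1*), *Clock*, *Per1*, *Per2*, *Per3*, *Cry1*, *Cry2*, *Nr1d1*, *Nr1d2* and *Dbp*, measured by RNA-Seq in mouse brown preadipocytes. A gene was included when a RefSeq transcript in the deposited exon counts carried its symbol or a synonym, and the transcript with most reads over the 4 libraries represented it. All 10 genes were found among 22463 gene symbols. Each was above 1 RPKM (reads per kilobase of exon, scaled to the mapped reads of the library) in every library. The 11861 symbols above that level in at least 1 library are called expressed genes below.

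The circadian clock is a feedback loop that runs in nearly every cell of the body, brown fat included. ARNTL and CLOCK form a dimer that binds E-boxes and activates the *Per*, *Cry*, *Nr1d1*, *Nr1d2* and *Dbp* genes. PER and CRY proteins then return to the nucleus and repress that dimer, while the nuclear receptors encoded by *Nr1d1* and *Nr1d2* (REV-ERBα and REV-ERBβ) repress *Arntl*, and DBP drives output genes through D-boxes. Glucocorticoids and cAMP-raising agents are known to set the phase of the clock in cultured cells, and a differentiation cocktail of the kind used here holds an agent of each class.

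The cells were preadipocytes of C57BL/6J E18.5 embryos, carried *Mll3*-/- *Mll4* flox/flox alleles and were immortalized with SV40T. MLL3 and MLL4 are histone H3 lysine 4 methyltransferases. Cells were infected with adenovirus expressing GFP (genotype *Mll3*-/-, named WT in the labels and control below) or Cre (*Mll3*-/- *Mll4*-/-, MLL4 KO below), so that both populations carried the *Mll3*-/- genotype. Reads on the whole *Mll3* (*Kmt2c*) transcript were 522 and 1224 in control and 463 and 451 in MLL4 KO cells at day 0 and day 2, and do not check that genotype. They were collected at day 0, a set time after confluence and before induction, and at day 2, after culture with insulin, T3, indomethacin, dexamethasone and IBMX. With 1 library for each of the 4 conditions and 1 immortalized line, no difference between conditions could be tested. A ratio is therefore given with the exact binomial 95% confidence interval of its reads, which covers counting error only and compares libraries. Differences past 2.5-fold, the cutoff in the study's methods, are counted as higher or lower. The hour of collection was not given in the sources used here, so a change in the level of a clock gene and a change in the phase of its rhythm cannot be told apart, nor can the genotype and the library.

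Counted reads summed to between 15831915 and 22099995 per library. The marker genes of preadipocytes and adipocytes were detected, with a summed level of 8 adipocyte markers of 26.8 and 14.1 RPKM at day 0 and of 1675 and 423 RPKM at day 2 in control and MLL4 KO cells, although *Cidea* was at 0 reads and *Ucp1* at no more than 1 read in each library. The summed level of 6 preadipocyte markers was 2001 and 1738 RPKM at day 0 and 369 and 652 RPKM at day 2, and 1 of them, *Pdgfra*, singled out after its values were seen, was 7.57-fold lower in MLL4 KO cells already at day 0. Both marker lists thus moved with the comparisons below, and their part in the clock gene values was not tested. The 2 blood markers matched were at 0 reads, and no muscle, endothelial or epithelial marker exceeded 4 reads. Reads on the whole *Mll4* (*Kmt2d*) transcript, 6304 and 8530 in control and 6316 and 5595 in MLL4 KO cells at day 0 and day 2, do not resolve the deleted exons and do not check the deletion. The MLL4 KO and control libraries at day 2 differed by transcript composition. In the ratio of MLL4 KO to control cells at day 2, the median log2 ratio of expressed genes was −0.70 in the bin of lowest GC content and 0.80 in the bin of highest, against 0.12 and 0.05 at day 0, with 555 genes in each bin. It was likewise 0.59 in the bin of shortest and −0.81 in the bin of longest transcripts at day 2. From day 0 to day 2, the medians of the lowest and highest GC bins were −0.47 and 0.67 in MLL4 KO cells. In control cells they were 0.36 and −0.10, so both day 2 libraries enter the trend of their ratio. Ratios after removal of both trends are given below where they change a result.

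Short stretches of promoter are shown for the 6 clock genes in which a clock motif was found, since these motifs are what the loop acts through. RefSeq start sites of GRCm38.p6 gave windows from 250 bases before to 50 bases after the start for 9 of the 10 genes. *Per2* had no window. The motifs searched on both strands were the E-box CACGTG, held by 7.15% of 32851 windows of that length, the E-prime box CACGTT (4.68%), the D-box TTATGTAA (0.938%) or TTACGTAA (0.119%), the end of the ROR and REV-ERB element TAGGTCA (2.61%) or TGGGTCA (3.98%), and the cAMP response element TGACGTCA (1.79%). Capitals mark the motif, and AACGTG is the E-prime box read on the other strand.
Per1, chr11:69098763-69098808, plus strand, E-box: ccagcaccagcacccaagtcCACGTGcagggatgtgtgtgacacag
Cry1, chr10:85185089-85185153, minus strand, E-prime box and E-box: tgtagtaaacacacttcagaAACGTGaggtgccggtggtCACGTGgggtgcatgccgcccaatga
Cry2, chr2:92434210-92434255, minus strand, E-prime box: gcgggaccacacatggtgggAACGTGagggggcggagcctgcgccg
Nr1d1, chr11:98775380-98775425, minus strand, E-prime box: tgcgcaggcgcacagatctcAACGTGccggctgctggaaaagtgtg
Per3, chr4:151044796-151044890, minus strand, D-boxes: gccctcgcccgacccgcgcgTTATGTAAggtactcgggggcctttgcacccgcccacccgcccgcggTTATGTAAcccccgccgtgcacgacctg
Arntl, chr7:113207531-113207557, plus strand, ROR element end: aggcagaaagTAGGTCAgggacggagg

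In these windows the E-box of *Per1* began 166 bases before the start site, and that of *Cry1* 60 bases before it. The *Per3* window held 2 D-boxes, which began 205 and 158 bases before the start. The match in *Arntl* began at base 31 of the transcript. No motif of the list lay in the windows of *Clock*, *Nr1d2* or *Dbp*, and sites outside the windows were not searched. A match is a run of letters and was not tested for binding. *Per1*, *Arntl* and *Clock* had 2, 2 and 3 windows. The share of all windows that hold any motif of the list was not counted, so the genes with a match are not shown to stand apart.

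Fewer cells of a type and less RNA per cell cannot be told apart in these bulk libraries. Both genes of the activating dimer were among those with lower levels in MLL4 KO than in control cells at day 2. *Clock* (NM_007715, chr5:76639992-76733817 of NCBI37/mm9, minus strand, 23 exons) encodes a bHLH-PAS activator with acetyltransferase activity. It had 633 and 1579 reads in control cells at day 0 and day 2 (4.92 and 9.19 RPKM), and 1060 and 480 in MLL4 KO cells (7.26 and 3.56 RPKM). Its level thus went in opposite directions from day 0 to day 2, to 1.87-fold higher in control cells (log2 ratio 0.90, 95% confidence interval 0.77 to 1.04) and 2.04-fold lower in MLL4 KO cells (−1.03, −1.19 to −0.87). At day 2 it was 2.58-fold lower in MLL4 KO than in control cells (−1.37, −1.52 to −1.22), beside 9.87% of expressed genes past the cutoff in that direction, and −1.23 with TMM factors was not past it. *Clock* lies where the trends of the day 2 ratio of MLL4 KO to control cells are strong. Its longest annotated protein-coding transcript (8645 bases, 41.6% GC) is the longest of the 10 genes and the lowest in GC content. With both trends removed, its day 2 log2 ratio of MLL4 KO to control was −0.50, and that of day 2 to day 0 in MLL4 KO cells was −0.22.

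*Arntl* (NM_007489, chr7:120350979-120457636, plus strand, 21 exons), the partner of CLOCK, was among the clock genes with the fewest reads. It had 101 and 162 reads in control cells (2.02 and 2.42 RPKM) and 91 and 69 in MLL4 KO cells (1.60 and 1.32 RPKM) at day 0 and day 2. The interval of the log2 ratio of day 2 to day 0 included 0 in control cells (0.26, −0.10 to 0.64) and in MLL4 KO cells (−0.29, −0.76 to 0.18). At day 2 the MLL4 KO library was lower than the control library (−0.88, −1.31 to −0.47), short of the cutoff. A change of *Arntl* with differentiation was thus not detectable at this depth.

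**Figure D1:**
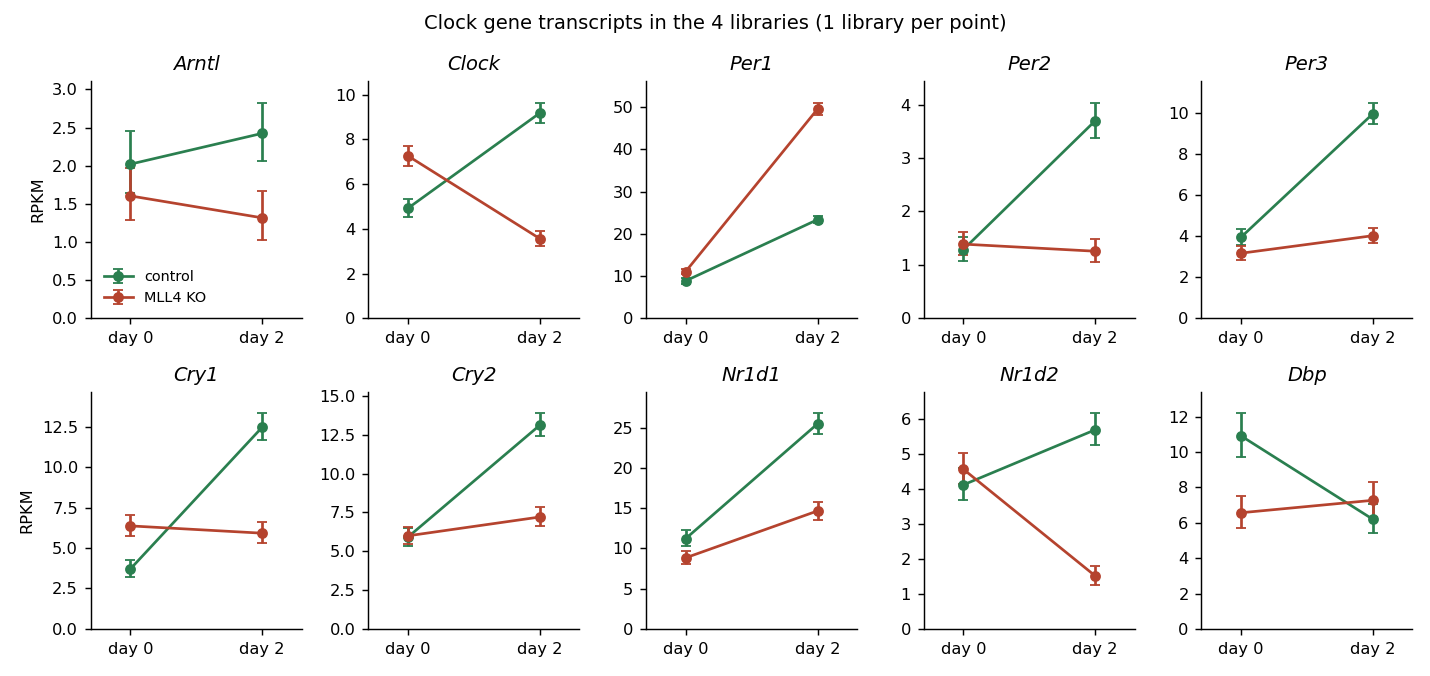
RPKM (y axes, each from 0) of the 10 clock genes at day 0 and day 2 in control (green) and MLL4 KO (red) cells. Each point is 1 library and bars are exact Poisson 95% intervals of its reads. *Clock* and *Nr1d2* go up in control and down in MLL4 KO cells, whereas *Per1* is highest in MLL4 KO cells at day 2, at 49.6 RPKM.

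The *Per* genes encode the PAS-domain proteins of the repressing complex, and in control cells all 3 passed 2.5-fold upward from day 0 to day 2, as did 8.43% of expressed genes. With TMM or median-of-ratios scaling, *Per1* (1.31 and 1.27) and *Per3* (1.24 and 1.21) fell short of the cutoff and *Per2* alone passed it. *Per1* (NM_011065, chr11:68908719-68923462, plus strand, 23 exons), an immediate early gene of the clock, had 709 and 2504 reads in control cells (8.85 and 23.4 RPKM) and 1005 and 4167 in MLL4 KO cells (11.1 and 49.6 RPKM) at day 0 and day 2. With the deposited RPKM it was the only one of the 10 genes over 2.5-fold higher at day 2 in both cell populations, by 2.64-fold in control (log2 ratio 1.40, 1.28 to 1.52) and 4.49-fold in MLL4 KO cells (2.17, 2.07 to 2.27). At day 2 it was 2.12-fold higher in MLL4 KO than in control cells (1.09, 1.01 to 1.16), against 1.25-fold at day 0 (0.32, 0.18 to 0.46). With the length and GC trends removed, the day 2 log2 ratio of *Per1* was 0.77. Its second transcript gave nearly the same reads (2504 in control and 4168 in MLL4 KO cells at day 2).

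*Per2* (NM_011066, chr1:93312561-93355907, minus strand, 23 exons), the other PER protein needed for a stable rhythm, differed from *Per1* in MLL4 KO cells. It had 129 and 496 reads in control cells (1.29 and 3.70 RPKM) and 158 and 132 in MLL4 KO cells (1.39 and 1.25 RPKM) at day 0 and day 2. The control day 2 library was high and the other 3 lay within overlapping intervals. From day 0 to day 2 *Per2* was 2.88-fold higher in control cells (1.52, 1.24 to 1.82), while the interval in MLL4 KO cells included 0 (−0.15, −0.49 to 0.20). The day 2 log2 ratio of MLL4 KO to control was −1.56 (−1.85 to −1.28), a 2.95-fold lower level, and was −1.36 with the length and GC trends removed.

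*Per3* (NM_011067, chr4:150377761-150418774, minus strand, 21 exons), the PER gene least needed for the rhythm, was likewise highest in the control day 2 library. It had 403 and 1361 reads in control cells (3.94 and 9.95 RPKM) and 367 and 431 in MLL4 KO cells (3.16 and 4.02 RPKM). The day 2 to day 0 ratio was 2.53-fold in control cells (1.34, 1.18 to 1.50), just inside the cutoff, and 1.27-fold in MLL4 KO cells (0.35, 0.14 to 0.55). At day 2 the level was 2.48-fold lower in MLL4 KO than in control cells (−1.31, −1.47 to −1.15), just outside it.

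The makeup of the summed *Per* level therefore differed in the MLL4 KO day 2 library. *Per1* made 62.9% and 63.1% of the summed RPKM of the 3 genes in control cells at day 0 and day 2, 70.9% in MLL4 KO cells at day 0, and 90.4% in MLL4 KO cells at day 2. *Per2* made 10.0% of it in control and 2.29% in MLL4 KO cells at day 2. The sum itself was higher in MLL4 KO cells at day 2, at 54.9 against 37.0 RPKM, through *Per1* alone. These shares and sums are of the deposited RPKM, without removal of the length and GC trends.

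*Cry1* and *Cry2* encode the cryptochromes, the strongest repressors of the CLOCK dimer. *Cry1* (NM_007771, chr10:84594447-84647799, minus strand, 13 exons) had 192 and 865 reads in control cells (3.70 and 12.5 RPKM) and 375 and 322 in MLL4 KO cells (6.37 and 5.92 RPKM) at day 0 and day 2. It had the largest day 2 to day 0 ratio of the 10 genes in control cells, 3.37-fold (1.75, 1.53 to 1.99), and an interval that included 0 in MLL4 KO cells (−0.11, −0.33 to 0.11). The libraries also differed at day 0, where *Cry1* was 1.72-fold higher in MLL4 KO than in control cells (0.78, 0.53 to 1.04), a ratio that 94.8% of expressed genes did not reach. At day 2 it was 2.11-fold lower (−1.08, −1.26 to −0.89).

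*Cry2* (NM_009963, chr2:92243803-92274200, minus strand, 12 exons) had 407 and 1207 reads in control cells (5.91 and 13.1 RPKM) and 468 and 520 in MLL4 KO cells (5.99 and 7.21 RPKM). The day 0 libraries did not differ beyond counting error (log2 ratio 0.02, −0.18 to 0.21). In control cells it was 2.22-fold higher at day 2 (1.15, 0.99 to 1.32), just outside the cutoff, and in MLL4 KO cells 1.20-fold (0.27, 0.08 to 0.45). At day 2 the level in MLL4 KO cells was 1.82-fold lower (−0.86, −1.02 to −0.72). The annotation places a noncoding gene, D930015M05Rik, over 149 bases of its transcript on the opposite strand.

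**Figure D2:**
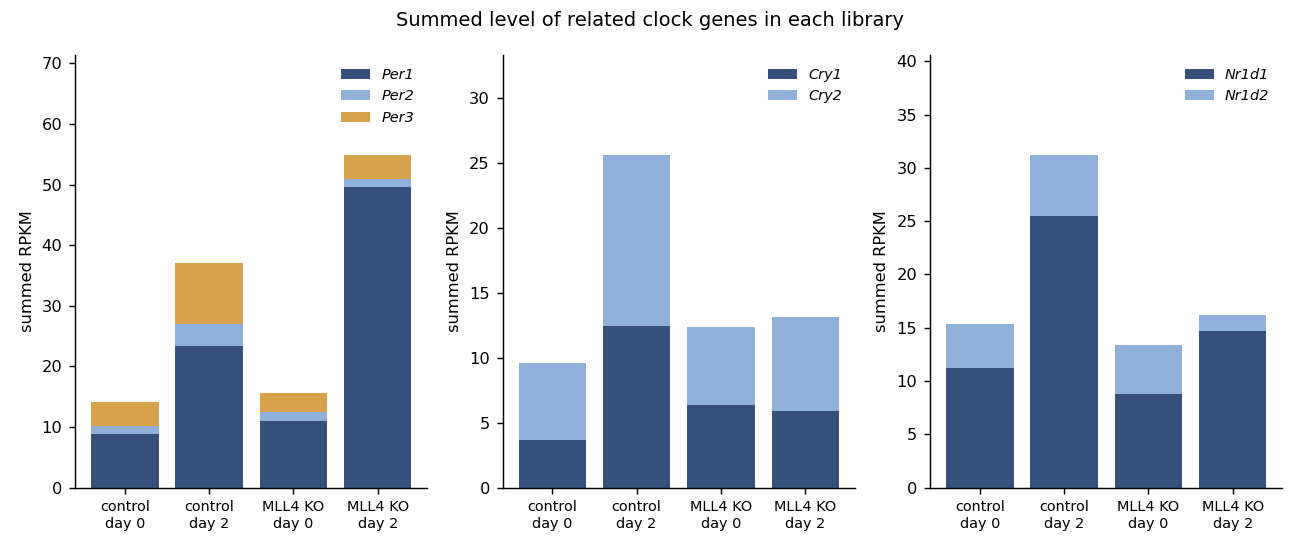
Summed RPKM (y axes, from 0) of the 3 *Per* genes, the 2 *Cry* genes and the 2 *Nr1d* genes in each of the 4 libraries, with 1 color per gene. The control day 2 bar is the tallest for *Cry* (25.6 RPKM) and *Nr1d* (31.2 RPKM), and the MLL4 KO day 2 bar for *Per* (54.9 RPKM), most of it *Per1*.

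*Nr1d1* (NM_145434, chr11:98629246-98636647, minus strand, 8 exons), which encodes the heme-binding repressor REV-ERBα, was the clock gene with the highest level in control cells at day 2. It had 507 and 1540 reads in control cells (11.2 and 25.5 RPKM) and 453 and 695 in MLL4 KO cells (8.84 and 14.7 RPKM) at day 0 and day 2. The day 2 to day 0 ratio was 2.27-fold in control (1.18, 1.04 to 1.33) and 1.66-fold in MLL4 KO cells (0.73, 0.56 to 0.91), so both populations went up, short of the cutoff. At day 2 it was 1.74-fold lower in MLL4 KO than in control cells (−0.80, −0.93 to −0.67). With the length and GC trends removed, the control ratio of day 2 to day 0 passed the cutoff.
*Nr1d1* shares 263 bases of exon (9.67% of its transcript) with *Thra*, a thyroid hormone receptor gene on the opposite strand, and the strand of the counting was not given in the sources used here. *Thra* was at 34.9, 92.3, 19.1 and 51.3 RPKM in control day 0, control day 2, MLL4 KO day 0 and MLL4 KO day 2 libraries, so reads of the shared bases cannot be told apart and their part in the *Nr1d1* ratios was not tested.

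*Nr1d2* (NM_011584, chr14:19036568-19071641, minus strand, 8 exons), which encodes REV-ERBβ, had the lowest ratio of the 10 genes in MLL4 KO cells. It had 329 and 608 reads in control cells (4.12 and 5.70 RPKM) and 414 and 127 in MLL4 KO cells (4.57 and 1.52 RPKM) at day 0 and day 2. From day 0 to day 2 it was 1.38-fold higher in control (0.47, 0.27 to 0.67) and 3.01-fold lower in MLL4 KO cells (−1.59, −1.89 to −1.30). At day 2 it was 3.76-fold lower in MLL4 KO than in control cells (−1.91, −2.20 to −1.63), and 96.4% of expressed genes had a higher ratio.
The limits of these values are its composition and a copy of its sequence. *Nr1d2* has a GC content of 41.8%, and with the length and GC trends removed its ratios were −1.20 for MLL4 KO to control at day 2 and −0.97 for day 2 to day 0 in MLL4 KO cells, neither past the cutoff. A near-identical copy with no annotated gene lies at chr19:40265189-40271491 of NCBI37/mm9, with at least 96.3% identity over 4365 bases, and 65.9% of the 50-base windows of the transcript match elsewhere in the genome within 2 mismatches. The treatment of reads with several matches was not given in the sources used here, so the level of *Nr1d2* is uncertain.

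*Dbp* (NM_016974, chr7:52960458-52965525, plus strand, 4 exons), the PAR bZIP output factor, was the only one of the 10 genes with a lower level at day 2 than at day 0 in control cells. It had 315 and 239 reads in control cells (10.9 and 6.20 RPKM) and 215 and 220 in MLL4 KO cells (6.57 and 7.27 RPKM). The control day 0 library was high, and the intervals of the other 3 overlapped. From day 0 to day 2 its log2 ratio was −0.82 in control (−1.07 to −0.57) and 0.15 in MLL4 KO cells (−0.13 to 0.42). With the length and GC trends removed, the MLL4 KO value turned to −0.67. At day 0 it was 1.66-fold lower in MLL4 KO than in control cells (−0.73, −0.99 to −0.48). At day 2 the interval of the ratio of MLL4 KO to control included 0 (0.23, −0.04 to 0.50), and the value became −0.86 with the length and GC trends removed. *Dbp* has the highest GC content (61.7%) and the shortest transcript of the 10 genes. It also shares 491 bases (27.4% of its transcript) with *Sphk2*, a sphingosine kinase gene on the opposite strand at 14.1, 18.6, 15.6 and 25.6 RPKM in the same library order, and these reads cannot be told apart.

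**Figure D3:**
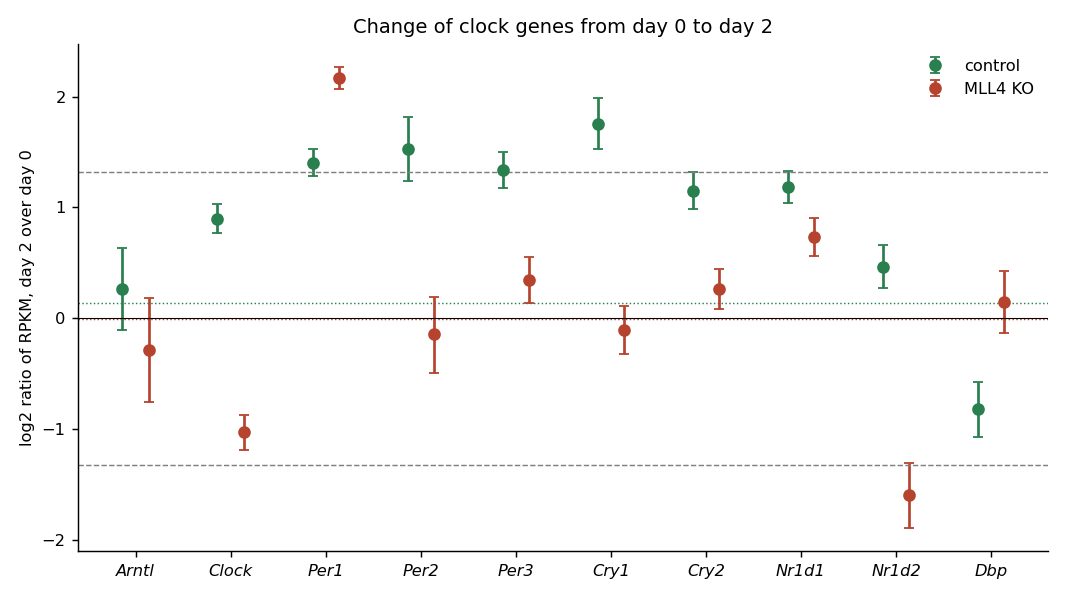
Log2 ratio of RPKM at day 2 over day 0 (y axis) of each clock gene (x axis) in control (green) and MLL4 KO (red) cells, with exact binomial 95% intervals of the reads. Dashed lines mark 2.5-fold, dotted lines the median of all expressed genes (0.14 and −0.01). *Per1*, *Per2*, *Per3* and *Cry1* are past the upper line in control cells, and only *Per1* in MLL4 KO cells.

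Set side by side, 4 of the 10 clock genes, *Per1*, *Per2*, *Per3* and *Cry1*, were higher at day 2 by over 2.5-fold in control cells, as were 8.43% of 11861 expressed genes. None was over 2.5-fold lower, where 13.0% of expressed genes were. The median log2 ratio was 1.17 over the clock genes and 0.14 over expressed genes. The count rests on values near the cutoff, since *Per3* lay just inside it and *Nr1d1* and *Cry2* just outside, and with TMM or median-of-ratios scaling 2 genes, *Per2* and *Cry1*, passed it.

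In MLL4 KO cells, 1 clock gene (*Per1*) was higher at day 2 by over 2.5-fold and 1 (*Nr1d2*) lower by as much, beside 9.61% and 10.4% of expressed genes. The median log2 ratio was 0.02 over the clock genes and −0.01 over expressed genes. The difference between the day 2 to day 0 log2 ratios of the populations, MLL4 KO minus control, had a 95% interval below 0 in 7 genes and above 0 in 2. It was lowest for *Nr1d2* (−2.06, −2.40 to −1.71), *Clock* (−1.93, −2.13 to −1.72), *Cry1* (−1.86, −2.17 to −1.55) and *Per2* (−1.67, −2.11 to −1.24). *Per1* (0.76, 0.61 to 0.92) and *Dbp* (0.96, 0.60 to 1.33) lay above 0, and the interval of *Arntl* included it (−0.55, −1.13 to 0.03). With the trends removed, the *Dbp* difference changed sign to −0.11, and those of *Clock* and *Nr1d2* were −0.98 and −1.28. *Cry1* and *Per2* were then the lowest. Their day 2 to day 0 log2 ratios in control and MLL4 KO cells were 1.76 and −0.01 for *Cry1*, and 1.68 and 0.20 for *Per2*. Those of *Per1* were 1.75 and 2.17, a smaller difference than before. The median difference was −0.94 over the clock genes and −0.09 over 11713 expressed genes, whose lower and upper quartiles were −0.78 and 0.66. The share of expressed genes with an interval below or above 0 was not counted. The counts of 7 and 2 clock genes therefore have no share to stand beside and are not shown to set these genes apart.

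At day 0, before induction, no clock gene differed by more than 2.5-fold between MLL4 KO and control cells, beside 2.08% of expressed genes higher and 4.17% lower. The median log2 ratio of the clock genes was 0.06, and their ratios ran from −0.73 (*Dbp*) to 0.78 (*Cry1*). At day 2, 3 clock genes (*Per2*, *Clock* and *Nr1d2*) were over 2.5-fold lower in MLL4 KO cells, where 9.87% of expressed genes were, and 0 were over 2.5-fold higher, where 9.59% were. The median was −0.98 over the clock genes and −0.14 over expressed genes. The ratio was below 0 in 8 of the 10 genes and above 0 in *Per1* and *Dbp*. The median of expressed genes was itself below 0, and their share below 0 was not counted. This comparison shares the control day 2 library with that of day 2 to day 0 in control cells, so a high value in that library enters both. With the length and GC trends removed, *Per2* alone passed the cutoff, as 6.96% of 11092 expressed genes then did in that direction. The ratio was then below 0 in all clock genes but *Per1*, beside a median of −0.15 over expressed genes.

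**Figure D4:**
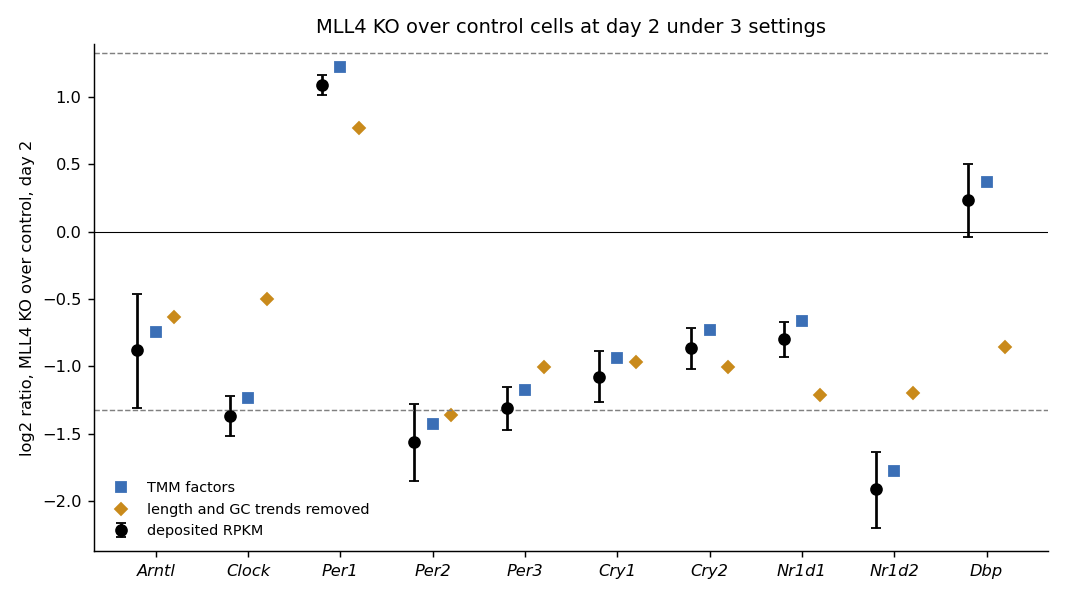
Log2 ratio of MLL4 KO over control cells at day 2 (y axis) for each clock gene (x axis), from the deposited RPKM with exact binomial 95% intervals (black), with TMM factors (blue) and with length and GC trends removed (orange). Dashed lines mark 2.5-fold. *Clock* moves from −1.37 to −0.50 and *Dbp* from 0.23 to −0.86 when the trends are removed, and *Per2* stays past the lower line.

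Most clock genes lay below genes of like GC content at day 2. *Clock* and *Nr1d2*, at −1.37 and −1.91, lay in a bin with a median log2 ratio of −0.68, and *Arntl* (−0.88) in one with −0.43. *Per2*, *Per3*, *Cry1*, *Cry2* and *Nr1d1* lay between −0.80 and −1.56 in bins with medians from −0.18 to 0.34. *Per1* (1.09) and *Dbp* (0.23) lay in bins with medians of 0.59 and 0.80, so that *Per1* was above and *Dbp* below genes of like GC content. The bins of GC content leave out length. In bins of transcript length, the medians were −0.81 for *Clock*, −0.65 for *Per2* and *Per3*, −0.59 for *Per1* and *Nr1d2*, and −0.42 for *Cry2*. They were −0.21 for *Cry1* and *Arntl*, −0.13 for *Nr1d1* and 0.24 for *Dbp*.

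**Figure D5:**
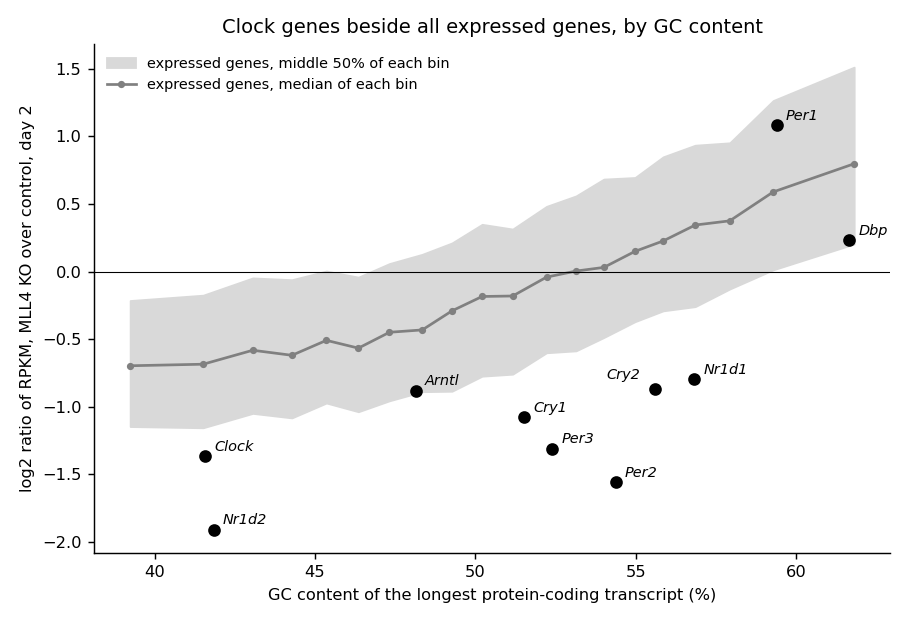
Log2 ratio of MLL4 KO over control cells at day 2 (y axis) against transcript GC content (x axis, percent) for the clock genes (black points), beside the median (grey line) and the middle 50% (grey band) of expressed genes in 20 bins of GC content. The median runs from −0.70 to 0.80, and 7 of the 10 clock genes lie below the band, with *Arntl* near its lower edge, *Dbp* just inside it and *Per1* inside its upper part. By construction, the expressed genes outside the band lie in equal parts below and above it. The bins leave out transcript length.

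The order of levels per length changed between libraries. In control cells at day 0, *Nr1d1* (11.2 RPKM) and *Dbp* (10.9 RPKM) were highest, with overlapping Poisson intervals, followed by *Per1*, and *Per2* was lowest. At day 2, *Nr1d1* (25.5 RPKM) and *Per1* (23.4 RPKM) led with overlapping intervals, and *Arntl* was lowest. In MLL4 KO cells *Per1* led at day 0 (11.1 RPKM) and at day 2 (49.6 RPKM), where it was 39.5 times the level of *Per2*, the lowest. *Nr1d2*, *Arntl* and *Per2* had overlapping intervals there, each at or below 1.52 RPKM. The highest and lowest clock genes were between 7.97 and 10.5 times apart in the other 3 libraries. The length and GC trends were not removed from these levels.

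The genes whose centred log2 levels over the 4 libraries lay nearest to each clock gene were looked up among 8616 genes with at least 100 reads. The nearest gene was *Exosc5* for *Per1*, *Ncoa7* for *Per2*, *Micall1* for *Per3*, *Rrp12* for *Cry1*, *Ola1* for *Cry2*, *Frmd6* for *Arntl*, *Pde12* for *Clock*, *Tmed4* for *Nr1d1*, *Mtmr9* for *Nr1d2* and *Plin3* for *Dbp*. Distances on that scale ran from 0.026 (*Per2*) to 0.25 (*Per1*). No clock gene was the nearest gene of another. The closest pair of clock genes, *Cry2* and *Nr1d1*, lay 0.36 apart, and 385 genes were nearer to *Cry2* and 174 nearer to *Nr1d1* than that. With 4 libraries, many genes share any pattern, and nearness is a description.

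A list of 23 further genes of the clock network was read the same way, and its counts stand beside the same shares of expressed genes. Of the 20 with at least 20 reads in a library compared, 3 (*Hlf*, *Usp2* and *Noct*) were over 2.5-fold higher and 4 (*Arntl2*, *Bhlhe40*, *Bhlhe41* and *Fbxl21*) over 2.5-fold lower at day 2 in control cells, beside 8.43% and 13.0% of expressed genes. Their median log2 ratio was 0.32. In MLL4 KO cells, 2 of 19 (*Hlf* and *Usp2*) were higher and 2 (*Arntl2* and *Bhlhe40*) lower, beside 9.61% and 10.4%, with a median of −0.24. Between the populations, 0 of 20 were higher and 2 (*Hlf* and *Fbxl21*) lower in MLL4 KO cells at day 0, beside 2.08% and 4.17%. At day 2, 0 of 19 were higher and 2 (*Rora* and *Noct*) lower, beside 9.59% and 9.87%. The medians were 0.01 and −0.58. *Hlf* (at most 0.71 RPKM) and *Fbxl21* (at most 0.80 RPKM) did not reach 1 RPKM in any library. The shares of expressed genes therefore leave these 2 genes out, although the counts above include them.

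*Noct*, a rhythmic gene whose product removes phosphate from NADP(H), had 531 and 2223 reads in control cells and 502 and 409 in MLL4 KO cells at day 0 and day 2. Only the control day 2 library was high, and the day 2 log2 ratio of MLL4 KO to control was −2.09 (−2.25 to −1.94), or −2.20 with the trends removed. *Rora*, which activates *Arntl* through the element that REV-ERB proteins repress, had 28, 68, 44 and 21 reads in control day 0, control day 2, MLL4 KO day 0 and MLL4 KO day 2 libraries. Its day 2 ratio of −1.34 (−2.13 to −0.62) was −1.24 with the trends removed, no longer past the cutoff.

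By contrast, *Usp2*, a deubiquitinase gene and output of the clock, went up alike in both populations, from 87 to 666 reads in control (2.52, 2.19 to 2.86) and from 120 to 722 in MLL4 KO cells (2.70, 2.42 to 2.99). *Bhlhe40*, an E-box repressor also known as *Dec1*, went down in both, from 1379 to 579 reads (−1.67, −1.81 to −1.53) and from 1717 to 409 (−1.96, −2.12 to −1.80). *Bhlhe41*, its paralogue, was at 97, 45, 70 and 53 reads, *Arntl2*, a paralogue of *Arntl*, at 55, 23, 39 and 9, and *Fbxl21*, a ligase subunit for CRY proteins, at 27, 3, 9 and 1 in the library order above. *Hlf*, a paralogue of *Dbp*, was at 20, 93, 2 and 73 reads, and the 2 reads in MLL4 KO cells at day 0 leave its ratios there wide (day 2 to day 0, 5.30, 3.40 to 8.38).

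Lists for the cocktail's agents were read beside the clock genes. The dexamethasone list held 6 genes known to respond to it and *Nr3c1*, the glucocorticoid receptor gene. Of these 7, 4 were over 2.5-fold higher at day 2 in each population, with log2 ratios of 3.78 in control and 2.28 in MLL4 KO cells for *Tsc22d3* and of 3.33 and 2.76 for *Fkbp5*, while 1 and 0 were lower. The shares of expressed genes given above for each comparison are the background of these counts. At day 2, 1 of the 7 was higher and 2 lower in MLL4 KO than in control cells, and at day 0 none passed the cutoff. Of the genes induced by cAMP with enough reads, 0 of 5 were higher and 1 lower at day 2 than at day 0 in control cells, 1 of 6 higher and 0 lower in MLL4 KO cells, and 1 higher and 1 lower of 6 between the populations at day 0. At day 2, 2 of these 6 were higher and 0 lower in MLL4 KO cells. Their part in the clock gene values was not tested.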

How the data were processed

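RNA-Seq of 4 libraries, 1 per condition (control, infected with Ad-GFP, and MLL4 KO, infected with Ad-Cre, at day 0 and day 2), was analysed. The authors sequenced 50-base reads, aligned them to NCBI37/mm9 and collected reads on exons of RefSeq transcripts. They deposited the read count of each transcript, not normalized, and its RPKM. The treatment of reads with several matches and of strand was not given in the sources used here. Symbols were found for 97.8% of 29082 transcripts in a RefSeq table of GRCm38.p6, used for names and promoter sequences. The longest protein-coding transcript in GENCODE vM1 (NCBI37/mm9) gave exon numbers, printed lengths and, for 93.7% of expressed genes, GC content. Gene positions also came from GENCODE vM1. Expressed genes had an RPKM above 1 in at least 1 library.

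Ratios of RPKM were counted past 2.5-fold, with exact binomial (Clopper-Pearson) intervals of the reads from scipy 1.17.1. The difference between the log2 ratios of the populations was given the normal interval of its 4 counts. No test between conditions was run. Length and GC trends were removed as medians of 20 bins in 5 rounds. For the length bins, exon length was taken from the ratio of reads to RPKM of the counted transcript. TMM factors came from edgeR 4.0.16 in R 4.3.3, and no edgeR test was run. Copies were searched with blastn 2.17.0. Scripts ran in Python 3.11.15 with pandas 2.3.3, numpy 2.4.6 and, for figures, matplotlib 3.10.9. The procedure was tested on simulated data with known ratios.

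The clock genes, lists and settings were chosen with earlier results of these data known. All 10 clock genes are named, as are other clock genes past 2.5-fold with at least 20 reads in a library compared, the nearest gene in pattern, overlapping genes, *Mll4*, and at most 2 genes induced by dexamethasone.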

Additional observations from a re-analysis of the deposited data

Results flagged for a closer look

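From day 0 to day 2, *Clock* and *Nr1d2* went in opposite directions in the control and MLL4 KO libraries. The log2 ratio of *Clock* was 0.90 in control and −1.03 in MLL4 KO cells, and that of *Nr1d2* was 0.47 and −1.59. With 1 library per condition, the difference between the populations was not tested. With the length and GC trends removed, the MLL4 KO values were −0.22 and −0.97.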

How the results depend on the processing

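The 30 ratios of clock genes whose interval did not include 0 kept their sign under 8 other settings. Adding 1 RPKM or asking for at least 20 reads could not change a sign. The mean over all transcripts could move only the 2 genes with more than 1. Among the ratios left out, *Dbp* turned from 0.23 to −0.86 for MLL4 KO to control at day 2 with both trends removed. For day 2 to day 0 in MLL4 KO cells, *Dbp* then turned from 0.15 to −0.67 and *Per2* from −0.15 to 0.20. The counts of genes past the cutoff also moved. Shares of expressed genes were computed at 2.5-fold only, with the deposited RPKM and with both trends removed. With both trends removed, 8.07% were higher at day 2 in control cells and 9.35% lower at day 2 in MLL4 KO cells. In MLL4 KO against control cells at day 2, 6.62% were then higher and 6.96% lower. The counts under the other settings have no share to stand beside. The 4 genes higher at day 2 in control cells were 2 with TMM factors, 2 with median-of-ratios size factors, 1 with 1 RPKM added, 3 with the length trend removed, 5 with both trends removed, 6 at a cutoff of 2-fold, 0 at 4-fold and 1 where the bound of the interval had to pass. The 1 gene lower at day 2 in MLL4 KO cells was 0 with 1 RPKM added, with the length trend removed, with both trends removed, at 4-fold and by the bound, and 2 at 2-fold. At day 2, the 3 genes lower in MLL4 KO than in control cells were 2 (*Per2* and *Nr1d2*) with summed counts, TMM or median-of-ratios scaling. With 1 RPKM added or the length trend removed the count was 1 (*Nr1d2*), and with both trends removed 1 (*Per2*). It was 1 by the bound, 5 at 2-fold and 0 at 4-fold. The 0 genes higher became 1 with the length trend removed and 1 at 2-fold. The difference of *Dbp* between the populations, 0.96, reversed to −0.11 with both trends removed; the construction of that setting, which subtracts the median of genes of like GC content and length, gives the change, and the cause of the others was not tested. Other scalings moved the median log2 ratio of expressed genes by more than 0.1 in some comparisons, by 0.13 (TMM, summed counts) and 0.16 (median of ratios) for MLL4 KO to control at day 2, by −0.13 (median of ratios) for day 2 to day 0 in control cells, and by 0.18 (summed counts) for it in MLL4 KO cells. No paired analysis was possible because each condition had 1 library. No replicate could be left out for the same reason. Depth limits *Arntl*, *Nr1d2* and *Per2* most, with 69, 127 and 132 reads in MLL4 KO cells at day 2.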
